A study of Homo sapiens with 52 samples.

Results

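WI-38 fibroblasts driven into senescence by doxorubicin and WI-38 fibroblasts that had exhausted their replicative lifespan were compared directly, 16 days after the drug. The comparison covers the 14854 genes, of 59408 listed, whose mean normalised read count was at least 10 both in the table of doxorubicin-treated cells and in the table of replicatively senescent cells. That minimum was met by 14921 genes in the first table and 15532 in the second, and it did not use the difference between the groups. WI-38 is a strain of normal human fibroblasts from embryonic lung. It is 1 cell strain, so the samples of a group share their origin.

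DDR-Sen (DNA damage response-induced senescence) on day 16 denotes cells given 250 nM doxorubicin (DXR) for 24 h, washed and kept in fresh medium until day 16. RS (replicative senescence) denotes cells passaged until they stopped dividing at about population doubling level (PDL) 52, a state the labels call telomere shortening. Untreated denotes young cells at PDL 32 to 46. All 3 groups shared the medium and had no genetic change, and each held 2 libraries of mRNA sequencing. DDR-Sen and RS cells therefore differed in inducer, in the number of divisions and in time since treatment, which cannot be told apart. Nothing in the labels says that the libraries of a group came from separate cultures, so p-values measure the spread between these libraries, which may be technical. The paper's methods speak of 2 independent samples for mRNA sequencing, without saying whether these were separate cultures.

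Doxorubicin is an anthracycline that traps topoisomerase II on DNA and breaks the double strand. Replicative senescence follows the shortening of telomeres, whose uncapped ends are sensed as broken DNA. Both routes signal through ATM and p53 to the cyclin-dependent kinase inhibitor p21 (CDKN1A), and long-term arrest is held by p16 (CDKN2A). Senescent fibroblasts also secrete cytokines, growth factors and proteases, the senescence-associated secretory phenotype (SASP), and lose lamin B1 (LMNB1).

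Counts per library were recovered from the deposited means. The libraries held 19 and 15.3 M counted reads in Untreated, 55.5 and 47.1 M in RS, and 32.2 and 28.1 M in DDR-Sen day 16. Levels are given in CPM, read counts of a gene scaled to a common library size, with the more deeply sequenced library of a pair first. For 265 of the 14854 genes only the sum over the DDR-Sen day 16 pair was known, and the mean of the pair is then given. The RS pair was the least alike of the 25 groups whose counts could be recovered, with a median absolute difference between its libraries of 0.194 on the log2 scale, against 0.143 in DDR-Sen day 16 and 0.134 in Untreated. The fibroblast label was met by 13 of 14 lung fibroblast markers, whose summed mean level was 37160 CPM in RS and 29760 CPM in DDR-Sen day 16, while TBX4 stayed under 1 CPM. Markers that such a culture should lack were under 1 CPM in all 6 libraries for 9 of 14 epithelial, 8 of 10 endothelial and 10 of 11 immune genes, and PTPRC, the pan-leukocyte marker, reached at most 0.633 CPM. The exceptions in these lists were the keratins KRT8 (23.2 to 39.8 CPM), KRT18 (49.7 to 145 CPM), KRT19 (15.1 to 61.0 CPM) and KRT7 (0.452 to 1.22 CPM), CLDN4 (0.633 to 1.60 CPM), the endothelial genes TEK (96.9 to 199 CPM) and VWF (1.44 to 4.41 CPM), and CD14 (0.908 to 13.6 CPM). Of 10 smooth muscle and pericyte markers 2 were under 1 CPM in all 6 libraries. Among the others, ACTG2 was at 125 to 697 CPM, CSPG4 at 152 to 373 CPM and NOTCH3 at 93.4 to 168 CPM. LMOD1 was at 103 to 153 CPM and CNN1 at 64.2 to 163 CPM. In bulk RNA, fewer cells of a kind and less RNA per cell cannot be told apart.

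Most genes were at near-equal levels in both kinds of senescent cell. The log2 difference, DDR-Sen day 16 minus RS, had a median of -0.00436 and was under 0.5 in size for 88.0% of genes, while 406 genes (2.73%) differed by 1 or more. The median absolute log2 difference was 0.136 between DDR-Sen day 16 and RS, 0.351 between DDR-Sen day 16 and Untreated, and 0.357 between RS and Untreated. Against Untreated, 1358 genes were higher (9.14%) and 1742 lower (11.7%) in DDR-Sen day 16, and 1621 were higher (10.9%) and 1947 lower (13.1%) in RS, at an adjusted p under 0.05 in limma. These contrasts share the Untreated libraries.

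Only 3 genes (0.0202%) passed that test between DDR-Sen day 16 and RS, with the 6 libraries of the 3 groups in the fit. Of these, 1 was higher in DDR-Sen day 16 (0.00673%) and 2 were higher in RS (0.0135%). At an unadjusted p under 0.05 there were 1240 genes (8.35%), of which 565 were higher in DDR-Sen day 16 (3.80%) and 675 in RS (4.54%). Both libraries of 1 group lay beyond both of the other for 5196 of the 14589 genes with all counts known (35.6%). Leaving out 1 library left RS or DDR-Sen day 16 with no spread of its own. The number that passed moved with the library left out. It was 527 without the larger RS library, 641 without the smaller RS library and 0 without either library of DDR-Sen day 16, where 687 and 730 genes had an unadjusted p under 0.05.

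HMCN1 (hemicentin 1, a very large protein of the extracellular matrix, chr1:185734391-186190949) stood at 36.3 and 37.9 CPM in RS, 10.7 and 8.76 CPM in DDR-Sen day 16, and 6.52 and 8.02 CPM in Untreated. Both RS libraries were therefore far above the other 4, and HMCN1 was 3.80-fold higher in RS than in DDR-Sen day 16 (log2 difference -1.93 ± 0.13, SE; limma adjusted p = 0.0473). No library of the other groups exceeded 15.9 CPM. PRUNE2 (a BCH domain protein, chr9:76611376-76906114) reached 61.7 and 78.5 CPM in RS, 16.9 and 18.1 CPM in DDR-Sen day 16 and 5.56 and 4.76 CPM in Untreated. Its level was 3.97-fold higher in RS (-1.99 ± 0.15, adjusted p = 0.0491), and DDR-Sen day 16 in turn passed the test against Untreated (1.75, adjusted p = 0.00862). RS held the highest mean of the 25 groups for both genes. The antisense gene PCA3 lies within PRUNE2, and whether reads were counted by strand is not given in the sources used here.

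FLII (flightless, a gelsolin-related regulator of actin, chr17:18244815-18259022) was the only gene that passed in the other direction. Its levels were 24.5 and 26.7 CPM in DDR-Sen day 16, 3.76 and 2.87 CPM in RS, and 16.9 and 22.2 CPM in Untreated, a 7.66-fold difference (2.94 ± 0.20, adjusted p = 0.0473). FLII varied widely within pairs elsewhere. In 12 of the 25 groups its libraries were over 2-fold apart, and libraries of the other groups ranged from 2.89 to 105 CPM. The difference did not pass when the spread was estimated over all 25 groups (adjusted p = 0.387).

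**Figure D1:**
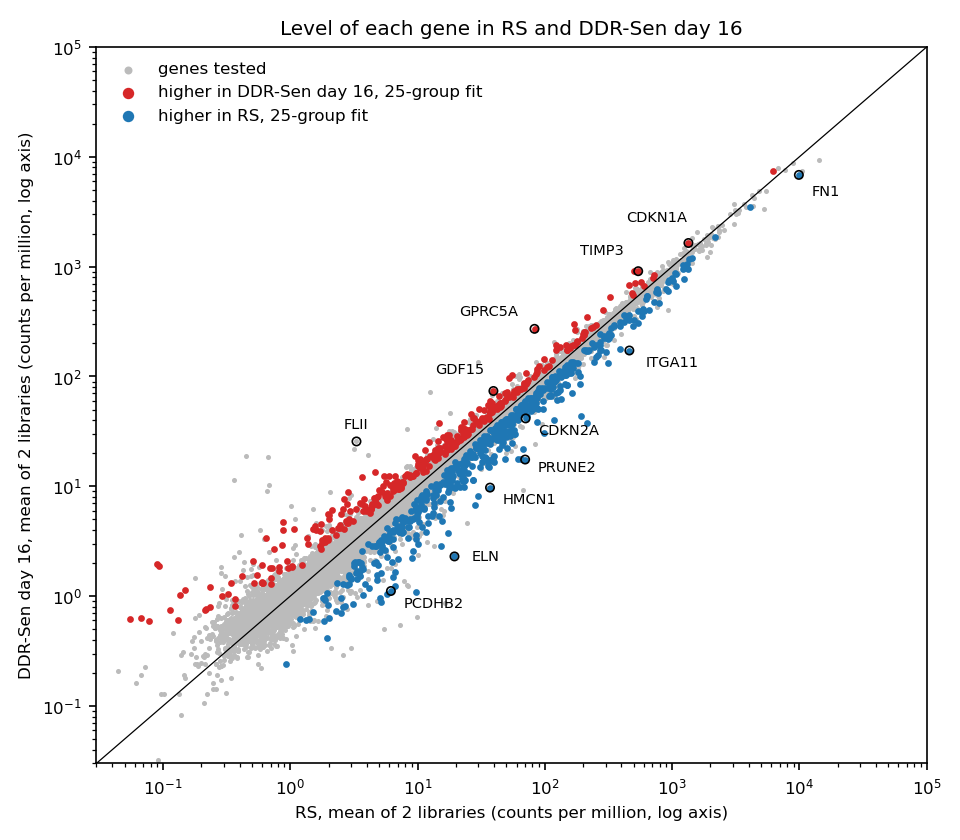
Mean level of each of the 14854 genes in RS (horizontal axis) and DDR-Sen day 16 (vertical axis), in CPM on log axes, 1 point per gene. Coloured points passed the test with the spread of 25 groups, 332 of them higher in DDR-Sen day 16 (red) and 548 higher in RS (blue), most genes lie near the diagonal, and a few genes near 0 in a group fall outside the axes.

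To estimate the spread from more libraries, the same contrast was also fitted with all 50 libraries of the 25 groups, which assumes that RS libraries vary as those of other groups do. The assumption was not met, since the spread between libraries ranked 1 of 25 in RS (0.194) and 6 in DDR-Sen day 16 (0.143). The wider fit can therefore understate the error of this contrast and give adjusted p that are too small. It gave 880 genes (5.92%), 332 higher in DDR-Sen day 16 (2.24%) and 548 higher in RS (3.69%). HMCN1 and PRUNE2 were among them and FLII was not. Without the larger or the smaller RS library this wider fit gave 507 and 756 genes higher in DDR-Sen day 16, and 1181 and 991 higher in RS. Without the larger or the smaller DDR-Sen day 16 library it gave 158 and 142 higher in DDR-Sen day 16, and 179 and 277 higher in RS. In every one of these 4 fits 155 genes passed in 1 direction, 46 higher in DDR-Sen day 16 and 109 higher in RS. In the fits without the larger and without the smaller RS library 113 genes passed in opposite directions. Counts of a gene list with 1 library left out are given below as 4 numbers. Their order is larger RS, smaller RS, larger DDR-Sen day 16 and smaller DDR-Sen day 16 library. Each such fit left RS or DDR-Sen day 16 with 1 library, which has no spread of its own. Passing it is therefore no check of a call. The share of all genes that passed moved widely between these fits. List counts from them cannot be set against 2.24% and 3.69%, the shares of the fit with all libraries. Unless stated, "passed" below refers to the wider fit and its adjusted p for DDR-Sen day 16 against RS. Against Untreated, "passed" refers to the fit on 6 libraries. Log2 differences and SE are from the fit on 6 libraries, in which only the 3 genes above passed between DDR-Sen day 16 and RS.

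Of the genes that passed as higher in RS in the wider fit, the 15 with the largest differences were ELN, CDK18, PCDHB2, SUCNR1, CXCL14, PCDHB5, DYSF, ALKAL1, CTNND2, PCDHB8, RAP1GAP, PRUNE2, ATRNL1, LUZP2 and HMCN1. For all 15 the RS mean was the highest of the 25 groups, a rank partly set by picking genes high in RS. Against Untreated, 13 of the 15 passed as higher in RS and 4 as higher in DDR-Sen day 16, in the fit on 6 libraries. Of all genes 10.9% and 9.14% did. RAP1GAP, which switches off the small GTPase Rap1, stood at 6.39 and 6.96 CPM in RS, 1.42 and 1.89 CPM in DDR-Sen day 16, and 0.0534 and 0.326 CPM in Untreated. The groups were fully apart, with a log2 difference of -2.02 ± 0.30 (adjusted p = 1.08e-08). SUCNR1, the receptor for extracellular succinate, had 3.77 and 6.65 CPM in RS but 0.934 and 0.838 CPM in DDR-Sen day 16 (-2.44 ± 0.46, adjusted p = 7.31e-05). DYSF (dysferlin, which acts in resealing the plasma membrane) measured 9.61 and 21.1 CPM in RS against 2.80 and 2.90 CPM (-2.28 ± 0.55, adjusted p = 2.68e-05). In DYSF, as in ALKAL1, a ligand of the receptor tyrosine kinase ALK, with 17.4 and 39.5 CPM in RS against 3.92 and 9.53 CPM, the RS libraries were over 2-fold apart but both above DDR-Sen day 16. CXCL14, a chemokine of stroma and epithelium, was at 9.12 and 4.09 CPM in RS and at 1.18 and 1.29 CPM in DDR-Sen day 16 (-2.35 ± 0.61, adjusted p = 0.000202).

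Not all of these calls held without each library. ELN, CDK18 and CTNND2 lost theirs without either library of DDR-Sen day 16, with adjusted p from 0.0662 to 0.266. For CDK18, a cyclin-dependent kinase of the PCTAIRE family, the RS libraries were at 2.58 and 17 CPM. The other 12 passed in all 4 of those fits.

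Of the genes that passed as higher in DDR-Sen day 16 in the wider fit, the 15 with the largest differences were PALMD, NOC2LP1, CHI3L2, DDIT4L, PPL, CRABP2, GPRC5A, LPIN3, TMEM100, C3, PLPP7, MCTP1, MGMT, TENM2 and HS3ST1. The difference of FLII, which did not pass the wider fit, was larger than any of these. RS held the lowest mean of the 25 groups for 5 of the 15, a rank partly set by picking genes low in RS. Against Untreated, 4 passed as lower in RS and 5 as higher in DDR-Sen day 16, in the fit on 6 libraries. Of all genes 13.1% and 9.14% did. The difference between both senescent states thus did not come from the same side in every gene. LPIN3, a lipin that makes diacylglycerol from phosphatidate, had 12.1 and 11.9 CPM in DDR-Sen day 16, 4.04 and 3.35 CPM in RS, and 10.5 and 11.1 CPM in Untreated. It was thus lower in RS than in the other groups (1.70 ± 0.15, adjusted p = 1.84e-09). DDIT4L, an inhibitor of mTORC1 signalling, was at 3.92 and 4.33 CPM in DDR-Sen day 16, 1.09 and 1.04 CPM in RS, and 8.82 and 6.06 CPM in Untreated (1.93 ± 0.27, adjusted p = 2.66e-05). Both senescent groups passed as lower than Untreated for DDIT4L, RS by more.

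GPRC5A, an orphan receptor first known as induced by retinoic acid, measured 280.4 and 263 CPM in DDR-Sen day 16, 52.7 and 113 CPM in RS, and 173 and 127 CPM in Untreated (1.81 ± 0.35, adjusted p = 2.05e-05). CRABP2, a binding protein for retinoic acid, had 8.59 and 6.74 CPM in DDR-Sen day 16 against 4.32 and 0.95 CPM in RS (1.81 ± 0.59, adjusted p = 0.000674). MGMT, which removes alkyl groups from guanine in DNA, had 4.13 and 4.57 CPM in DDR-Sen day 16, 1.98 and 1.18 CPM in RS and 3.05 and 3.06 CPM in Untreated (1.47 ± 0.27, adjusted p = 1.61e-07). The DDR-Sen day 16 mean of MGMT was the highest of the 25 groups and the RS mean second from the lowest. PALMD (palmdelphin) was also highest in DDR-Sen day 16, at 2.59 and 4.22 CPM against 0.494 and 0.791 CPM in RS (2.40 ± 0.50, adjusted p = 0.000143). NOC2LP1, with 4.55 and 4.82 CPM against 0.953 and 0.814 CPM in RS, is a pseudogene of NOC2L and may share reads with it. CHI3L2, PPL, C3, TENM2 and HS3ST1 each lost the call without at least 1 library, with adjusted p up to 0.346, and the other 10 passed in all 4 fits.

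**Figure D2:**
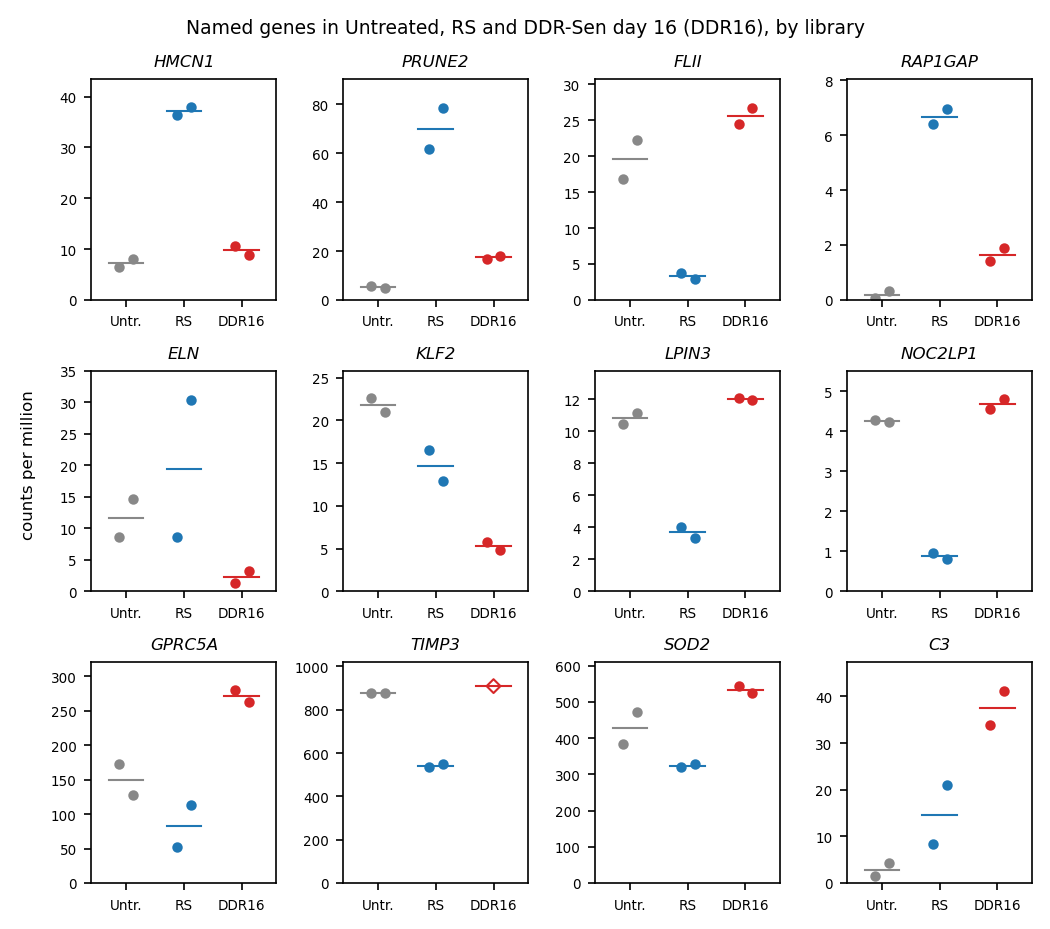
Levels of 12 named genes in each library of Untreated (grey), RS (blue) and DDR-Sen day 16 (red), in CPM on axes from 0, 1 point per library and a line at the mean of the pair, an open diamond marking a pair of which only the mean is known. For RAP1GAP both RS libraries lie at 6.39 and 6.96 CPM, above the other 4, and for LPIN3 both RS libraries lie at 4.04 and 3.35 CPM, below the other 4.

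The beta protocadherins, seen among those genes and then taken as a family after the values were known, were higher in RS as a group. Clustered protocadherins are cadherin-like adhesion proteins encoded in tandem on chromosome 5, best known for giving neurons their individual surface identity. Each beta gene has its own promoter with a conserved element and is a single exon. The promoters are shown for 5 members that passed, as the 100 bases before each start (RefSeq, GRCh38.p14, plus strand). The 9-base run GGTGGCGCT is printed in capitals. It was chosen because no other 9-base run was found in more of the beta promoters, so its frequency among them was set by the choice.
PCDHB2, chr5:141094515-141094614: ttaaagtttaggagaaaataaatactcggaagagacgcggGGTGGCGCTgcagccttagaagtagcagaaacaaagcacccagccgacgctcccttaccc
PCDHB5, chr5:141135106-141135205: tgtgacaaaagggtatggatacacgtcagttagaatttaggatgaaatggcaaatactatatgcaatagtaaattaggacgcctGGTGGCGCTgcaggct
PCDHB16, chr5:141182287-141182386: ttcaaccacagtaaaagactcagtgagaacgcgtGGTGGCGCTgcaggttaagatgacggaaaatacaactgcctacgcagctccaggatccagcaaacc
PCDHB9, chr5:141187061-141187160: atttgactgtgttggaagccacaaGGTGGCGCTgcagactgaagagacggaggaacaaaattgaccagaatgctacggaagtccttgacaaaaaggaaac
PCDHB13, chr5:141213819-141213918: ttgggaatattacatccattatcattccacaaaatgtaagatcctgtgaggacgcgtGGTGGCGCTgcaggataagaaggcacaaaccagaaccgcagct

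Searched on both strands from 250 bases before to 50 after the start, GGTGGCGCT was found in 13 of the 14 beta promoters in the RefSeq table, on the plus strand, with its first base between 84 and 2 bases before the start. It was found in 176 of all 35116 promoters (0.501%) and in 119 of the 15422 promoters of tested genes (0.772%). Members that did not pass, PCDHB10 and PCDHB15, hold it too. A link between the run and the levels of these genes was not tested.

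Of 20 beta genes listed, 11 reached the minimum level. For 10 of these 11 both RS libraries were above both of DDR-Sen day 16, where 18.3% of all genes were, and 8 passed, where 3.69% of all genes did. The summed level of the 11 was 56.1 and 57.3 CPM in RS, 23.2 and 24.2 CPM in DDR-Sen day 16, and 8.55 and 7.76 CPM in Untreated. The order RS over DDR-Sen day 16 over Untreated thus held in every library. The median log2 difference of the 11 was -0.97, beside -0.00436 for all genes.

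PCDHB2 was at 5.80 and 6.56 CPM in RS, 1.15 and 1.08 CPM in DDR-Sen day 16, and 0.107 and 0.0652 CPM in Untreated (-2.44 ± 0.23, adjusted p = 9.79e-07, and 0.0549 in the fit on 6 libraries). PCDHB8, at 5.75 and 6.99 CPM against 1.21 and 1.78 CPM, and PCDHB16, at 10.8 and 8.50 CPM against 3.22 and 3.42 CPM, were also fully apart. PCDHB13 differed less, at 8.77 and 8.07 CPM in RS against 4.19 and 4.40 CPM (-0.97 ± 0.14, adjusted p = 2.52e-05). PCDHB10 did not pass, at 3.74 and 3.62 CPM against 3.04 and 3.00 CPM, nor did PCDHB11 and PCDHB15. The RS mean was the highest of the 25 groups for all 11, though the family was taken up because members were high in RS. Against Untreated, 10 passed as higher in RS and 8 as higher in DDR-Sen day 16, in the fit on 6 libraries. Of all genes 10.9% and 9.14% did. With each library left out in turn, 6 of the 8 passed in all 4 fits. Beta genes are close copies, and reads that fit several could have been split among them or discarded, so values of single members are uncertain.

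**Figure D3:**
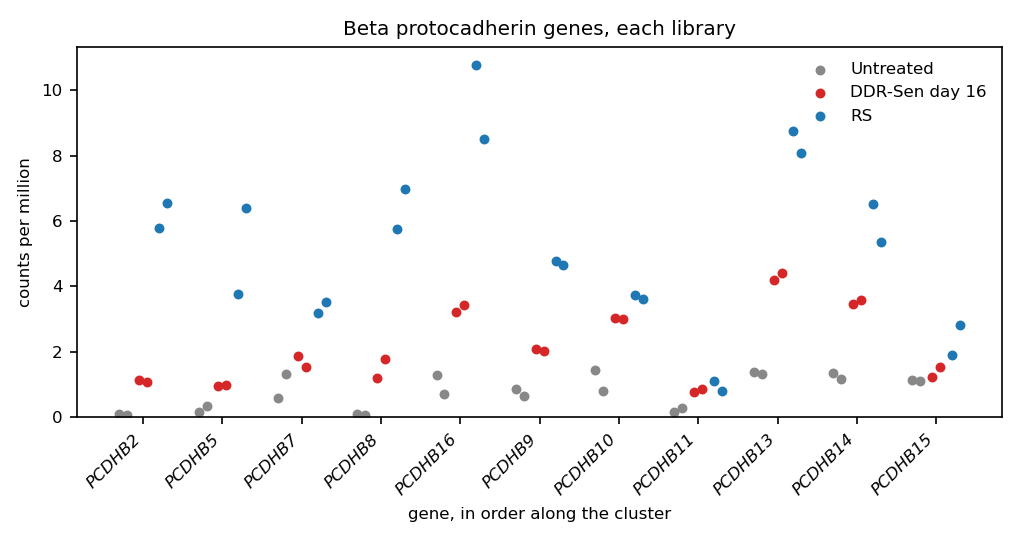
Levels of the 11 tested beta protocadherins in each library of Untreated (grey), RS (blue) and DDR-Sen day 16 (red), in CPM on an axis from 0, 1 point per library, in their order along the cluster. Both RS libraries lie above both DDR-Sen day 16 libraries for 10 genes, PCDHB11 being the exception.

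The neighbouring families differed in part. Both tested alpha genes of 17 listed passed as higher in RS, where 3.69% of all genes did. PCDHA10 had 3.02 and 2.83 CPM in RS against 1.39 and 1.19 CPM in DDR-Sen day 16, while no read was counted in Untreated. With 1 library left out 2, 1, 0 and 0 alpha genes passed. Among 22 tested gamma genes 2 passed in each direction, beside 2.24% of all genes higher in DDR-Sen day 16 and 3.69% in RS. As for the beta genes, reads that fit several members could have been split or discarded. Values of single alpha and gamma members are therefore uncertain too. PCDHGB1 was at 5.04 and 6.06 CPM in RS against 2.71 and 2.55 CPM in DDR-Sen day 16 (-1.05 ± 0.19, adjusted p = 0.00166). PCDHGA10 lay the other way, at 12.4 CPM in both DDR-Sen day 16 libraries against 6.61 and 5.34 CPM in RS (1.04 ± 0.21, adjusted p = 0.000104).

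The genes that define arrest were measured whatever their values. MKI67, a marker of dividing cells, fell from 196 and 153 CPM in Untreated to 6.42 and 3.46 CPM in DDR-Sen day 16 and to 6.44 and 1.2 CPM in RS. LMNB1 fell from 54.2 and 46.0 CPM to 1.66 and 2.16 CPM in DDR-Sen day 16 and to 1.91 and 0.859 CPM in RS. Neither gene passed between both senescent groups in either fit. Of 58 tested genes of DNA replication and mitosis 57 passed as lower than Untreated in DDR-Sen day 16 and 58 in RS. Of all genes 11.7% and 13.1% did. The median log2 differences of the list were -3.30 and -3.51. None of the list passed between both states in either fit, where 5.92% of all genes passed in the wider fit. In the fit on 6 libraries 1 had an unadjusted p under 0.05. In the wider fit 3 passed as higher in DDR-Sen day 16 without the larger RS library.

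Among inhibitors of the cell cycle and senescence markers, 1 of 22 passed as higher in DDR-Sen day 16, beside 2.24% of all genes. As higher in RS 2 passed, beside 3.69%. The list's median log2 difference was 0.028, and none passed in the fit on 6 libraries. CDKN2A was at 39.3 and 43.7 CPM in DDR-Sen day 16, 73.9 and 67.5 CPM in RS, and 23.8 and 23.7 CPM in Untreated. The 3 groups did not overlap, and RS was 1.71-fold above DDR-Sen day 16 (-0.77 ± 0.10, adjusted p = 4.08e-06, and 0.159 in the fit on 6 libraries). The CDKN2A locus encodes p16 and ARF, whose transcripts were counted as 1 gene. CDKN2B (p15), beside it on the chromosome, was at 24.1 and 35.4 CPM in DDR-Sen day 16 and 33.9 and 80.4 CPM in RS (adjusted p = 0.0357, 0.513 without the smaller RS library and 0.368 without the larger DDR-Sen day 16 library). CDKN1A went the other way, with a DDR-Sen day 16 mean of 1642 CPM against 1314 and 1374 CPM in RS and 832 and 899 CPM in Untreated (0.30 ± 0.10, adjusted p = 0.00681, and 0.523 in the fit on 6 libraries).

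Of 32 tested p53 target genes 9 passed as higher in DDR-Sen day 16, against 2.24% of all genes, and 2 as higher in RS, against 3.69%. GDF15, a secreted stress cytokine, was at 66.7 and 80.8 CPM in DDR-Sen day 16, 45.3 and 33.6 CPM in RS and 40.3 and 36.9 CPM in Untreated (0.91 ± 0.17, adjusted p = 0.000553). Its RS libraries overlapped the Untreated libraries and both lay below DDR-Sen day 16. FDXR, the ferredoxin reductase of mitochondria, had 47.7 and 54.5 CPM against 37.4 and 23.5 CPM in RS (0.77 ± 0.22, adjusted p = 0.00253). PLK2, a polo-like kinase, had 181 and 206 CPM against 98.1 and 146 CPM (0.69 ± 0.20, adjusted p = 0.00935). BTG2, an antiproliferative regulator of mRNA turnover, had 53.7 and 56.8 CPM against 38.3 and 32.9 CPM (0.63 ± 0.13, adjusted p = 0.00121). The median log2 difference of the list was 0.13. With 1 library left out 11, 6, 4 and 3 genes of the list passed as higher in DDR-Sen day 16 and 2, 1, 0 and 0 as higher in RS.

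**Figure D4:**
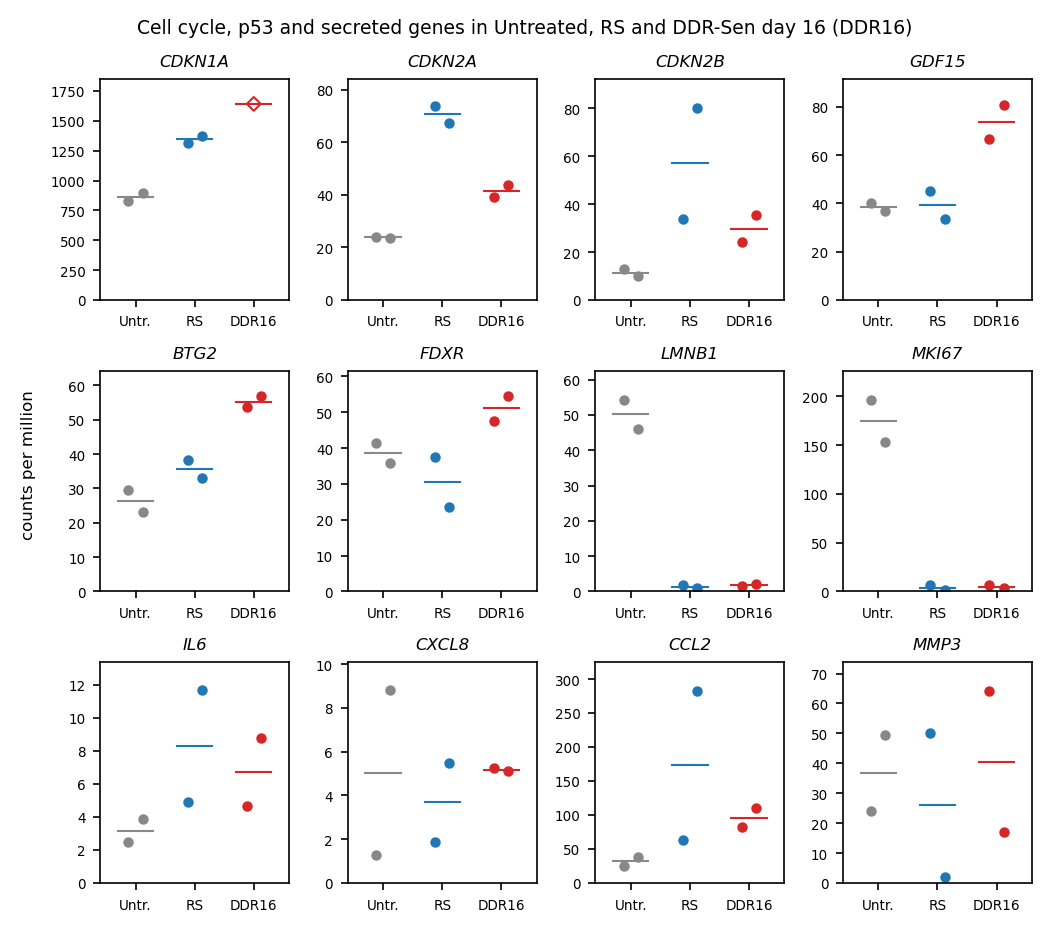
Levels of genes named for their place in senescence in each library of Untreated (grey), RS (blue) and DDR-Sen day 16 (red), in CPM on axes from 0, 1 point per library and a line at the mean of the pair, an open diamond marking a pair of which only the mean is known. CDKN2A separates all 3 groups, at 73.9 and 67.5 CPM in RS, 39.3 and 43.7 CPM in DDR-Sen day 16 and 23.8 and 23.7 CPM in Untreated, while IL6 overlaps between the senescent groups.

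The best known members of the SASP did not pass, and their RS values were widely spread. IL6 was at 4.67 and 8.76 CPM in DDR-Sen day 16 and 4.87 and 11.7 CPM in RS. CCL2, the monocyte chemokine, had 82.1 and 110 CPM in DDR-Sen day 16 and 63.1 and 283 CPM in RS. CXCL8 had 5.24 and 5.10 CPM against 1.89 and 5.50 CPM. For these 3 genes the RS libraries lay on both sides of DDR-Sen day 16 or overlapped it, and none passed in either fit. CCL2 passed in the wider fit without the larger RS library (adjusted p = 0.0007), as higher in RS. The collagenase MMP1 (283 and 103 CPM against 455 and 41.3 CPM), the stromelysin MMP3 (64.0 and 17.1 CPM against 50.1 and 2.06 CPM) and the carrier IGFBP3 (242 and 570 CPM against 344 and 1507 CPM) did not pass either. MMP1 passed in opposite directions without an RS library, as higher in DDR-Sen day 16 without the larger (2.06, adjusted p = 0.00442) and as higher in RS without the smaller (-1.40, adjusted p = 0.0133). Of 21 tested interleukins and chemokines 1, CXCL14, passed as higher in RS, beside 3.69% of all genes. The counts were 1, 2, 0 and 0 higher in DDR-Sen day 16 and 4, 1, 1 and 1 higher in RS with 1 library left out.

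Growth factors and their carriers had 4 of 29 genes higher in RS and none higher in DDR-Sen day 16, beside 3.69% and 2.24% of all genes, with a median log2 difference of -0.28. FGF1 was at 12.7 and 17.1 CPM in DDR-Sen day 16 and 22.8 and 50.6 CPM in RS (-1.20 ± 0.42, adjusted p = 0.00283). VEGFC, which drives lymphatic growth, had 47.9 and 40.4 CPM against 89.2 and 56.1 CPM (-0.68 ± 0.23, adjusted p = 0.0375). The other 2 were VEGFB and IGFBP7. Leaving out 1 library gave 8, 8, 0 and 2 higher in RS and 2, 4, 0 and 0 higher in DDR-Sen day 16. In TGF-beta, BMP and WNT signalling 7 of 40 passed as higher in RS and 1 as higher in DDR-Sen day 16, beside the same 3.69% and 2.24%. INHBA, the subunit of activin A, had 84.1 and 119 CPM in DDR-Sen day 16 and 143 and 236 CPM in RS (-0.88 ± 0.37, adjusted p = 0.0179). The activin antagonist FSTL3 and SMAD7, the inhibitory SMAD, also passed as higher in RS. TGFBR3 (betaglycan, a co-receptor) was the exception, at 28.1 and 30.3 CPM in DDR-Sen day 16 against 14.8 and 19.3 CPM in RS (0.80 ± 0.17, adjusted p = 0.0027). For this list the counts with 1 library left out were 10, 15, 1 and 4 higher in RS and 4, 5, 1 and 1 higher in DDR-Sen day 16.

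Genes of the elastic fibre, the proteoglycans and the matricellular proteins had 9 of 45 members higher in RS, against 3.69% of all genes, and none higher in DDR-Sen day 16, against 2.24%. The median log2 difference was -0.21. ELN (elastin, the core of the elastic fibre) was at 1.39 and 3.21 CPM in DDR-Sen day 16, 8.59 and 30.4 CPM in RS, and 8.66 and 14.7 CPM in Untreated (-2.91 ± 1.02, adjusted p = 0.00667). Both RS libraries lay above DDR-Sen day 16, over 3-fold apart from each other. ITIH5, a hyaluronan-binding inhibitor family member, was at 51.0 and 378 CPM in RS and 32.1 and 43.8 CPM in DDR-Sen day 16, against 1.02 and 1.70 CPM in Untreated. COMP and THBS2, of the thrombospondin family, also passed as higher in RS. When 1 library was left out, 19, 6, 1 and 4 of the list were higher in RS and 4, 3, 0 and 0 in DDR-Sen day 16.

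Among collagens and laminins 5 of 36 passed as higher in RS (3.69% of all genes) and 1 as higher in DDR-Sen day 16 (2.24%). These became 14, 5, 2 and 2 in RS and 3, 2, 0 and 1 in DDR-Sen day 16 with 1 library left out. COL4A1, the basement membrane collagen, had 428 and 496 CPM in DDR-Sen day 16, 568 and 1019 CPM in RS, and 1062 and 1186 CPM in Untreated (-0.73 ± 0.26, adjusted p = 0.0214). COL4A2, its partner chain transcribed from the shared promoter, had a DDR-Sen day 16 mean of 663 CPM against 924 and 1206 CPM in RS (-0.66 ± 0.15, adjusted p = 0.00131). Both chains passed as lower than Untreated in DDR-Sen day 16, and COL4A2 also in RS. LAMA2 was higher in DDR-Sen day 16, at 30.2 and 25.6 CPM against 19.6 and 12.1 CPM (0.84 ± 0.23, adjusted p = 0.00403). COL1A1, at 6363 and 14546 CPM in RS and a mean of 7388 CPM in DDR-Sen day 16, did not pass. Of 42 proteases and inhibitors 2 passed as higher in DDR-Sen day 16 (2.24% of all genes) and 3 in RS (3.69%), and with 1 library left out 8, 5, 1 and 1, and 10, 7, 0 and 1. TIMP1, a secreted inhibitor of metalloproteinases, passed as higher in DDR-Sen day 16 without the larger RS library (0.33, adjusted p = 0.00859) and as higher in RS without the smaller (-0.46, adjusted p = 0.000329). TIMP3, the matrix-bound inhibitor of metalloproteinases, had a mean of 909 CPM in DDR-Sen day 16 against 536 and 548 CPM in RS (0.76 ± 0.09, adjusted p = 1.63e-06, and 0.168 in the fit on 6 libraries), and 878 and 879 CPM in Untreated. RS was the lowest of the 25 groups for TIMP3.

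Contractile genes had 4 of 35 higher in RS, beside 3.69% of all genes, and none higher in DDR-Sen day 16. Leaving out 1 library gave 16, 4, 1 and 5 in RS and 0, 1, 0 and 0 in DDR-Sen day 16. ITGA11, a collagen-binding integrin of myofibroblasts, was at 161 and 184 CPM in DDR-Sen day 16, 305 and 618 CPM in RS and 82.4 and 63.4 CPM in Untreated (-1.34 ± 0.32, adjusted p = 1.29e-05). The 3 groups did not overlap, and RS was the highest of the 25. TAGLN (transgelin, an actin-binding protein) had a mean of 778 CPM in DDR-Sen day 16 against 1098 and 1403 CPM in RS (-0.67 ± 0.14, adjusted p = 0.0005). ACTA2, smooth muscle actin, had 72.0 and 228 CPM against 173 and 411 CPM and did not pass.

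Immediate early genes are transcribed within minutes of growth factor or stress signals. Of 30 tested AP-1 and immediate early genes 6 passed as higher in RS, against 3.69% of all genes, and none as higher in DDR-Sen day 16, against 2.24%, and the median log2 difference was -0.29. KLF2, a zinc finger factor, was at 5.76 and 4.89 CPM in DDR-Sen day 16, 16.5 and 12.9 CPM in RS and 22.6 and 21 CPM in Untreated (-1.46 ± 0.20, adjusted p = 0.00793). DDR-Sen day 16 held the lowest KLF2 mean of the 25 groups. NR4A1, an orphan nuclear receptor, had 1.93 and 2.16 CPM against 8.27 and 4.32 CPM in RS (-1.59 ± 0.43, adjusted p = 0.0473). DUSP4 and SPRY4, feedback inhibitors of MAP kinase signalling, also passed. JUN, at 213 and 240 CPM against 239 and 269 CPM, did not. With 1 library left out 5, 5, 0 and 1 of the list passed as higher in RS and 0, 2, 0 and 0 as higher in DDR-Sen day 16.

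**Figure D5:**
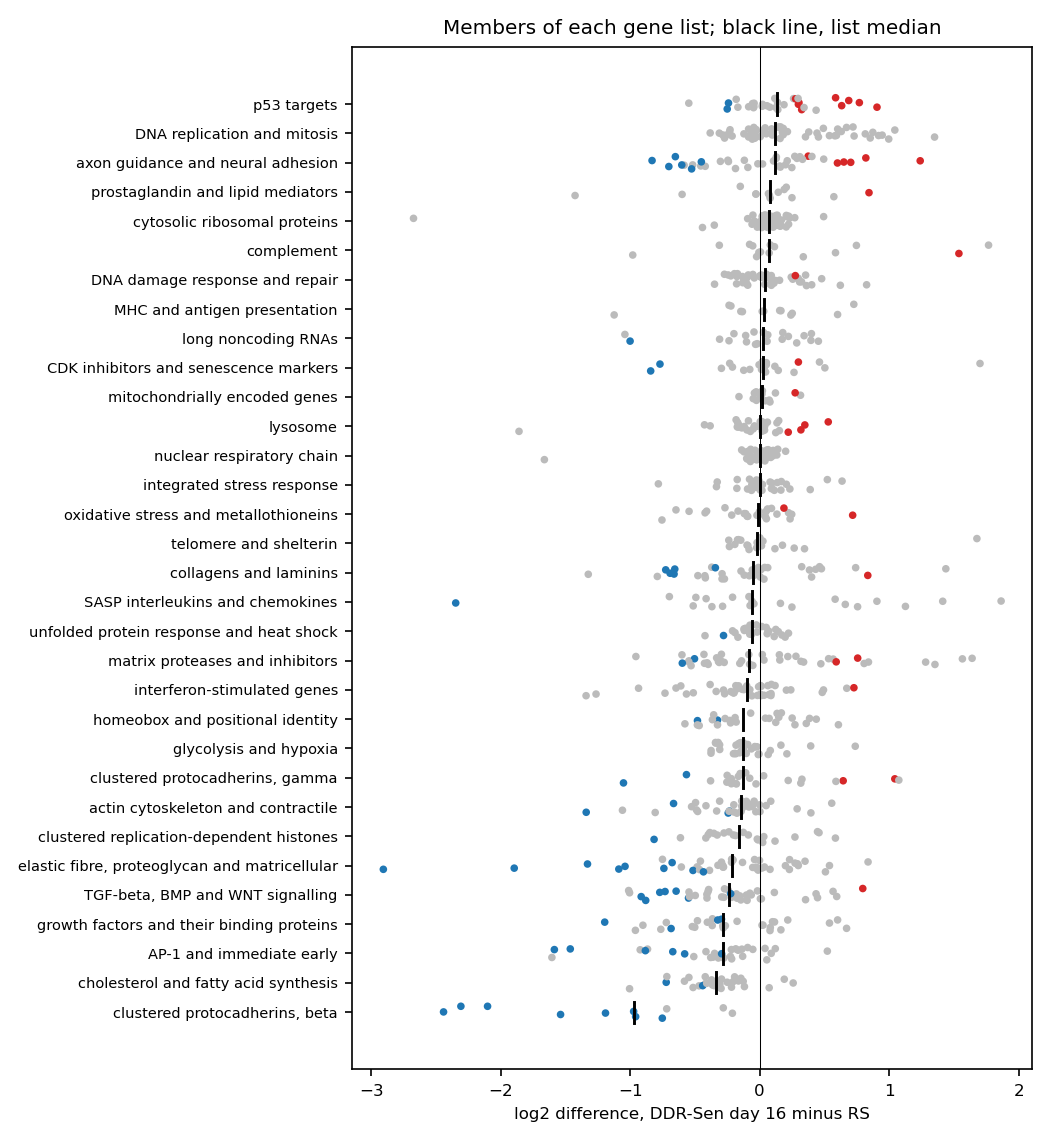
Log2 difference, DDR-Sen day 16 minus RS, for each tested gene of the listed groups, 1 point per gene, with genes that passed with the spread of 25 groups coloured red (higher in DDR-Sen day 16) or blue (higher in RS) and the median of each list marked. The p53 targets have 9 red and 2 blue points, the AP-1 and immediate early genes 6 blue, and the beta protocadherins 8 blue.

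Among metabolic groups, 3 of 32 genes of cholesterol and fatty acid synthesis passed as higher in RS, beside 3.69% of all genes, and the list's median log2 difference was -0.34. HMGCS1 and PMVK of the mevalonate route and SC5D, a late sterol desaturase, were those genes. HMGCS1 had 31.9 and 29.4 CPM in DDR-Sen day 16 against 73.0 and 34.8 CPM in RS, and its adjusted p of 0.0426 became 0.619 without the larger RS library. The counts became 1, 16, 0 and 1 higher in RS and 1, 0, 0 and 0 higher in DDR-Sen day 16 with 1 library left out. Lysosomal genes had 4 of 35 higher in DDR-Sen day 16, beside 2.24% of all genes, and none in RS. The counts of this list in both directions moved with the library left out. Among the 4 genes were the hydrolases CTSZ (cathepsin Z), MAN2B1 and SGSH, whose log2 differences ran from 0.32 to 0.53. SGSH had 145 and 138 CPM in DDR-Sen day 16, 115 and 112 CPM in RS, and 89.1 and 85.7 CPM in Untreated (0.32 ± 0.08, adjusted p = 0.00494). SOD2, the mitochondrial superoxide dismutase, was at 544 and 523 CPM in DDR-Sen day 16 against 320 and 328 CPM in RS (0.72 ± 0.12, adjusted p = 5.11e-05). In complement only C3 passed of 15 genes, with 33.9 and 41.1 CPM in DDR-Sen day 16 and 8.29 and 21.1 CPM in RS, and its call was lost without the larger RS library (adjusted p = 0.244) and without either library of DDR-Sen day 16 (0.0551 and 0.116).

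Of 49 tested genes that sense or repair broken DNA 1 passed as higher in DDR-Sen day 16, near the 2.24% of all genes, and none as higher in RS. This was PARP1, which binds DNA breaks, with 86.1 and 90.2 CPM in DDR-Sen day 16 against 73.5 and 72.1 CPM in RS (0.28 ± 0.10, adjusted p = 0.0296). The call was lost without the smaller RS library (adjusted p = 0.066) and without either library of DDR-Sen day 16 (0.0773 and 0.198). Of the same list 28 genes in DDR-Sen day 16 and 29 in RS passed as lower than Untreated, where 11.7% and 13.1% of all genes did. None of 19 telomere and shelterin genes passed in either fit, none of them had an unadjusted p under 0.05 in the fit on 6 libraries, and at most 1 in each direction passed with 1 library left out. TERF2IP (RAP1 of shelterin) was at 133 and 140 CPM in DDR-Sen day 16 and 144 and 129 CPM in RS. CGAS, the sensor of cytosolic DNA, was the only one of 43 interferon-stimulated genes to pass, where 2.24% of all genes passed as higher in DDR-Sen day 16, at 3.32 and 2.86 CPM against 1.96 and 1.76 CPM in RS, with 9.56 and 9.32 CPM in Untreated. CGAS lost the call without the smaller RS library (adjusted p = 0.0759) and without either library of DDR-Sen day 16 (0.24 and 0.0643), and 6 genes of its list passed as higher in RS without the larger RS library. None of the integrated stress response genes (32), MHC genes (13), cytosolic ribosomal proteins (74), nuclear genes of the respiratory chain (40) or genes of glycolysis and hypoxia (32) passed in the wider fit, where 5.92% of all genes did. In the fit on 6 libraries 0, 2, 1, 0 and 4 of them had an unadjusted p under 0.05. For glycolysis and hypoxia 2 genes passed as higher in DDR-Sen day 16 and 9 in RS without the larger RS library, and 4 and 6 without the smaller, PKM (pyruvate kinase M) in opposite directions (0.23 and -0.29, adjusted p = 0.00939 and 0.000856). For the integrated stress response 2 genes passed without the larger RS library and 5 without the smaller, and for the other 3 lists at most 2 passed in any of the 4 fits.

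Genes of axon guidance and neural adhesion had 6 of 38 in each direction, beside 2.24% of all genes higher in DDR-Sen day 16 and 3.69% in RS. With 1 library left out these were 2, 8, 2 and 1 in DDR-Sen day 16 and 8, 6, 2 and 3 in RS. CDH10 (cadherin 10) was at 4.94 and 7.37 CPM in DDR-Sen day 16 and 1.39 and 5.16 CPM in RS, and at most 0.130 CPM in Untreated. PCDH18, a protocadherin outside the clusters, had 339 and 358 CPM in DDR-Sen day 16 against 193 and 237 CPM in RS (0.70 ± 0.12, adjusted p = 0.0171). SLIT3, a guidance ligand, was higher in RS, at 8.96 and 11 CPM against 3.95 and 8.06 CPM. Of 5 tested neuronal markers 3 passed as higher in RS, beside 3.69% of all genes. In 1 of the 5 both DDR-Sen day 16 libraries lay above both RS libraries, where 17.3% of all genes did. Log2 differences in this list reached 0.57. MAP2, a microtubule protein of dendrites, had 6.96 and 7.82 CPM in DDR-Sen day 16, 16.5 and 13.4 CPM in RS, and 1.92 and 3.00 CPM in Untreated (-1.02 ± 0.18, adjusted p = 0.000105). SNAP25, of the synaptic fusion machinery, had 6.93 and 5.90 CPM against 14.5 and 12.5 CPM in RS. The summed level of 10 neuronal markers was 37.6 to 41.4 CPM in RS and 22.7 to 23.4 CPM in DDR-Sen day 16, while 6 of the 10, among them the neuron-defining RBFOX3, STMN2 and ELAVL3, were under 1 CPM in all 6 libraries.

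Of the genes named above as passing from the inhibitors of the cell cycle onward, CXCL14, GDF15, BTG2, CDKN2A, TGFBR3, ITGA11, SOD2, MAN2B1, MAP2 and SNAP25 passed with each of the 4 libraries left out. CDKN1A, TIMP3, COL4A2 and TAGLN passed without each RS library, and for them a DDR-Sen day 16 library could not be left out. The others lost the call without at least 1 library. Passing such a fit is no check of a call, since 1 group then has no spread of its own.

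Several abundant genes were measured at near-identical levels. For 586 genes the 95% interval of the log2 difference lay within 0.25 of 0. ANXA5 (annexin A5) had a mean of 1414 CPM in DDR-Sen day 16 and 1426 and 1430 CPM in RS, with an interval of -0.23 to 0.22. LRP10, an endocytic receptor, had a mean of 772 CPM against 775 and 782 CPM, with both groups above the 488 and 498 CPM of Untreated by 0.66 on the log2 scale.

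Whether the differences were seen against other senescent cells was examined for the 30 genes with the largest differences, in libraries of DDR-Sen on day 8, of cells after plasma membrane damage by SDS (PMD-Sen) on day 16 and of cells after KCl (Ca2+-Sen) on day 16. SDS and KCl, like DXR, were given for 24 h and washed away. Each agent had the same dose in all of its groups. The comparisons of these 3 groups with RS share the RS libraries with each other and with the one above. The 30 genes were picked by their values in those RS libraries, from a fit that also held the added groups. A like direction was therefore partly set by the picking. All 15 genes higher in RS were higher in RS than in each of the 3 groups, and 12, 12 and 14 of them passed in a fit on the 6 groups. PRUNE2 had 9.93 and 11.6 CPM in DDR-Sen day 8, 14.8 and 10.2 CPM in PMD-Sen and 9.30 and 9.12 CPM in Ca2+-Sen, against 61.7 and 78.5 CPM in RS. PCDHB2 lay between 0.456 and 1.27 CPM in these 6 libraries. Of the 15 genes higher in DDR-Sen day 16, 15, 15 and 12 were higher in those groups than in RS, and 8, 7 and 3 passed. LPIN3 was at 8.91 to 11.4 CPM in the 6 libraries against 4.04 and 3.35 CPM in RS. MGMT was at 1.75 and 2.07 CPM in Ca2+-Sen, near its RS level of 1.98 and 1.18 CPM. Over all genes in the same fit the median absolute log2 difference from RS was 0.136 for DDR-Sen day 16, 0.187 for DDR-Sen day 8, 0.204 for PMD-Sen and 0.242 for Ca2+-Sen, and 25, 203, 402 and 1280 genes passed as higher and 57, 410, 547 and 1303 as lower than in RS.

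Because telomeres shorten in RS, genes were also described by their distance from the nearer end of the chromosome, the end of the long arm being taken as that of the last annotated gene, with no test. Of 930 genes under 2 Mb from an end 3.66% passed as higher in DDR-Sen day 16 and 1.4% as higher in RS, and the median log2 difference was 0.04. Of 10404 genes over 10 Mb away 2.14% and 4.31% passed, with a median of -0.01. Genes near ends were shorter, with a median length of 16.6 kb against 33.1 kb. By length, 7.23% of the 3415 longest genes, over 75.1 kb, passed as higher in RS and 1.73% as higher in DDR-Sen day 16, against 2.66% and 1.93% of the 3415 shortest genes. The part of length in the values by distance was not tested.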

How the data were processed

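mRNA of WI-38 cells was sequenced. Per the labels and the submitters' processing notes, Trim Galore, HISAT2, HTSeq, featureCounts and DESeq2 were used with GRCh38, in no stated order, and their versions are not given in the sources used here. For each group against Untreated the authors deposited a signal per gene, the mean normalised read count over the 4 libraries of both groups, with fold changes and p-values that were not used.

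In 10 tables with 15 digits each mean allowed 1 set of whole read counts per library. In 14 tables with 10 digits some genes had more than 1 solution, 265 of the tested genes in the DDR-Sen day 16 table. Both libraries were known for 14589 tested genes in DDR-Sen day 16, 14540 in DDR-Sen day 8 and 14527 in PMD-Sen day 16. Where they were not, the pair entered the fits as 1 value. Counts were recovered for 25 of 26 groups (50 libraries). The table of DDR-Sen day 1 was left out for its mixed digits. Recovered libraries cannot be tied to replicate numbers and are named by depth. Counting error limits precision at low CPM.

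Log2 differences were tested with limma 3.58.1 (R 4.3.3, voom, median-of-ratios scaling), p-values adjusted over the 14854 genes by Benjamini-Hochberg. DDR-Sen day 16, RS and Untreated entered the main fit, and 25 groups the wider one. The groups added in the wider fit were cells on other days after DXR and cells on days after SDS or KCl, each agent given for 24 h. Other scalings, filters and weights and leaving out each library were tried.

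Genes were named by rule. Among genes that passed the wider fit, the 15 largest differences each way were taken. For these the groups had to be apart, with a mean of at least 100 normalised counts in the higher group. Up to 4 genes that passed per list and fixed genes were also named. The genes, lists and family were chosen with earlier results of these data known. Naming from the wider fit, the fit on 6 groups and the fits on 25 groups without 1 library were added after seeing the data. Promoters were from RefSeq (GRCh38.p14), to which 13658 genes (91.9%) matched. Other columns of per-sample values numbered 0. Some named genes are not reported here.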

Additional observations from a re-analysis of the deposited data

How the results depend on the processing

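No paired analysis was possible because the recovered libraries could not be tied to the replicate numbers in the labels. A ratio of the authors' means was not run, since counts were recovered. Counts of genes between DDR-Sen day 16 and RS are few in the fit on 6 libraries and move with most settings, written here as higher in DDR-Sen day 16 and higher in RS. They were 1 and 2 as reported, 4 and 9 with no filter beyond 1 read in 2 libraries, 2 and 4 with a mean of at least 100, 3 and 5 with limma trend, 0 and 2 with sample quality weights, 0 and 0 with only both groups in the fit (840 genes at an unadjusted p under 0.05), 25 and 57 with 6 groups, and 332 and 548 with 25 groups. Leaving out 1 library gave 0 to 238 and 0 to 403 in the fit on 6 libraries, and, without the larger and smaller RS library and the larger and smaller DDR-Sen day 16 library in turn, 507, 756, 158 and 142 and 1181, 991, 179 and 277 in the fit on 25 groups. Library totals, the trimmed mean of M values and a minimum log2 difference of 1 left the counts at 1 and 2. Of the 3 genes of the main fit 2 were among the 880 of the wider fit.

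Against Untreated, 1358 genes higher and 1742 lower in DDR-Sen day 16 became 2491 and 2832 with sample quality weights, 3183 and 3410 with 25 groups, and 177 to 2515 and 285 to 2849 without 1 library, and 2080 were higher with 6 groups. For RS the 1621 higher and 1947 lower became 3509 and 3541 with 25 groups, and 987 to 2614 and 1274 to 2538 without 1 library.

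Library totals moved the median of all genes by over 0.05, to 0.0612, and with it the medians of CDK inhibitors and senescence markers (0.0948), matrix proteases (-0.011), telomere genes (0.040), DNA damage response (0.107), mitochondrially encoded genes (0.0834), prostaglandin genes (0.16) and beta protocadherins (-0.908). Without 1 library the median log2 difference ran from -0.156 to 0.54 for replication and mitosis, -0.0334 to 0.0724 for CDK inhibitors and senescence markers, -0.357 to 0.551 for interleukins and chemokines, -0.309 to -0.125 for growth factors, -0.151 to 0.0237 for matrix proteases, -0.317 to 0.103 for collagens and laminins, -0.239 to 0.0775 for histones, -0.0861 to -0.0115 for telomere genes and -0.0238 to 0.0951 for the DNA damage response. The same range was -0.0441 to 0.0444 for mitochondrially encoded genes, -0.0555 to 0.234 for axon guidance, -0.016 to 0.156 for prostaglandin genes, -0.103 to 0.084 for long noncoding RNAs, -1.1 to -1.01 for beta protocadherins and -0.17 to 0.0595 for gamma protocadherins. Of the named genes, CD14 turned direction with a call in the fit on 6 libraries, at -0.77 without the larger RS library (adjusted p = 0.0421) against 0.23 with all and 1.08 without the smaller. In the wider fit CD14, MMP1, TIMP1 and PKM passed in opposite directions without the larger and without the smaller RS library. The causes were not tested. Depth limits genes of a few CPM most in Untreated, with 15.3 M reads in its smaller library.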
